A study of Mus musculus with 5 samples.

Results

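The genes described here are the 6 subunits of intraflagellar transport complex A (IFT-A) and 4 genes of the motors that work with the transport trains, namely Kif3a, Kif3b and Kifap3 of kinesin-2 and Dync2li1 of dynein-2. They were chosen by gene symbol, as probe sets annotated to a single gene, with earlier results of these data known. All 10 genes had such a probe set on the array, out of 18193 genes named in this way. Together they had 21 of 45037 probe sets, control probe sets aside. The samples were GFP+ cells collected by flow cytometry from trypsin-dissociated FOXJ1-GFP mouse lungs of E17.5, and 5 biological replicates were measured on 1 array each, with no other group. The embryos came from FOXJ1-GFP mice mated with the out-bred ICR strain. In this reporter line a FOXJ1 promoter drives GFP, so the gate selects cells with promoter activity and not cells with a visible cilium. Nothing in the labels or methods says how many embryos or litters made up a replicate, so the p-values below measure the spread between these 5 samples, which may be partly technical.

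A cilium has no ribosomes of its own, and its parts are moved in and out on trains that travel along the axoneme, the microtubule core. Kinesin-2 pulls the trains towards the tip, and dynein-2 brings them back to the base. IFT-A takes part in the return journey and in the entry of membrane proteins, while complex B (IFT-B) carries tubulin and other axonemal cargo. A multiciliated airway cell builds many motile cilia within a short time, and mutations of IFT-A and dynein-2 genes are known in humans as causes of skeletal ciliopathies.

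The deposited values are log2 signals that the authors normalized between arrays. Their medians lay between 7.18 and 7.26 on the 5 arrays. A background level of 8.04 was taken as the 95th percentile of the levels of 135 genes chosen as unlikely to be active in airway cells. Of these, 76 encode odorant, pheromone or taste receptors and 59 were listed as restricted to other tissues. The receptor genes alone gave a level of 5.44 and the tissue-restricted genes alone 9.45, so the level depended strongly on which genes set it. The label was checked against 18 marker genes of multiciliated cells, and 17 of them lay above background, beside 57.5% of all named genes. Foxj1, the transcription factor of motile ciliogenesis, had a log2 level of 12.82 ± 0.08 (SD, n = 5 arrays). The exception was Spag6 at 3.67 ± 0.13, measured by 1 probe set. A low signal at 1 probe set does not show that the cells lack the transcript. The authors measured Spag6 by qRT-PCR in adult tracheal cultures and counted it among known factors of ciliated cells. Of the markers of other lung cells, all 8 for alveolar type 1, all 9 for alveolar type 2 and all 8 for endothelial cells that were measured lay above background. So did 6 of 8 mesenchymal and 3 of 4 neuroendocrine markers. Log2 levels ran from 8.60 to 13.25 for alveolar type 1, from 9.89 to 14.06 for alveolar type 2 and from 9.77 to 12.05 for endothelial markers. The count of multiciliated markers therefore does not by itself set the sorted cells apart from these types. The counts of 4 of 8 club and goblet, 4 of 8 white blood cell, 2 of 6 basal, 2 of 5 mesothelial and 1 of 5 red blood cell markers were below the share of 57.5%, although the club cell genes Scgb1a1 and Scgb3a2 were at 13.99 ± 0.14 and 14.27 ± 0.07. The levels below are those of the whole sorted population. In such bulk samples fewer cells of a type and less RNA per cell cannot be told apart.

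All 10 transport genes were above background at the brightest probe set of each gene, the one of highest mean (limma, one-sided, adjusted p at most 3.47e-07 over all probe sets), whereas 57.5% of all named genes were. The margin over the background level ran from 1.25 for Ttc21b to 6.03 for Ift43 on the log2 scale. Of their 21 probe sets 19 were above background, against 39.7% of all probe sets, and the exceptions were the weaker probe sets of Wdr35 and Ttc21b. The median log2 level of the 10 genes was 12.66, beside 9.07 over all named genes. Because probe sequence also sets the signal of a probe set, no order between the genes is drawn from these levels.

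**Figure D1:**
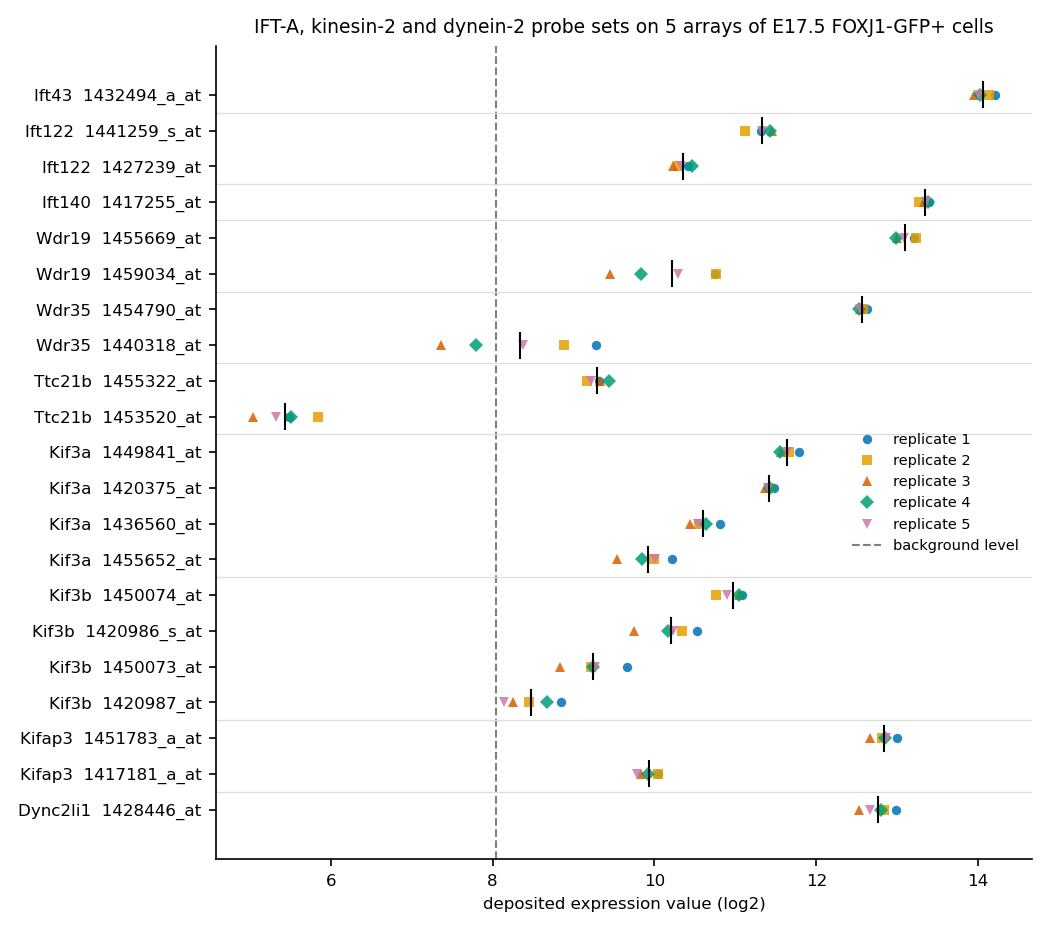
Deposited log2 values (horizontal axis) of the 21 probe sets of 10 transport genes (rows) on 5 arrays of E17.5 FOXJ1-GFP+ cells; each symbol is 1 replicate, black ticks are means and the dashed line is the background level of 8.04. The brightest probe set of each gene keeps its 5 values close together, while the second probe sets of Wdr19 and Wdr35 spread over 1.31 and 1.92.

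RefSeq promoter windows of GRCm38.p6 were at hand for 8 of the 10 genes, each with 250 bases before and 50 bases after a start site. The windows of Kif3a (chr11:53567119-53567418) and Kifap3 (chr1:163779333-163779632) lay inside the annotated genes, which begin at 53565701 and 163762138. For both genes the motif counts therefore describe an inner start site. All windows were searched because RFX factors, which bind the X-box, are known regulators of ciliary genes. The full X-box motif was in 0 of the 8 windows and in 1.53% of all 32851 windows, and the forkhead motif TGTTTAC was in 0 of 8 and 3.65%, on either strand. The shorter motif GTTGCC, which forms one side of the X-box, was in 3 of 8 windows, those of Kif3a, Wdr35 and Ift140, and in 12.5% of all windows, again on either strand. The members' windows had a median GC content of 61%, beside 52.7% over all windows. Those of Kif3a and Ift140 are shown because the motif lies before the start site of the window in them. The motif is in capitals as it reads on the strand of the gene, which is the plus strand for both. Start sites given below are those of the windows, and for Kif3a this site lies within the annotated gene.
Kif3a, chr11:53567259-53567288, motif starting 98 bases before the start site: caccccgcaggcGTTGCCccagtctagcgt
Ift140, chr17:25015965-25015994, motif on the opposite strand and starting 109 bases before the start site: gcgtgttgtgacGGCAACctcgcgcccttg
A match of these letters is a description of the window and shows no binding of a factor, and the arrays measured no binding.

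The core of IFT-A is formed by Ift122, Ift140 and Wdr19, which are long proteins with WD40 repeats followed by helical repeats. Ift140 had log2 values of 13.39, 13.26, 13.34, 13.38 and 13.36 in replicates 1 to 5, with a mean of 13.35 ± 0.05 (SD, n = 5; 95% confidence interval of the limma fit 13.21 to 13.48). Its single probe set thus varied little between the sorts, with an SD at percentile 15.9 of the probe sets of like level (mean within 0.5). Wdr19 had 13.21, 13.24, 13.00, 12.98 and 13.08, with a mean of 13.10 ± 0.12. Ift122 had 11.32, 11.12, 11.45, 11.43 and 11.34 at a probe set whose suffix marks possible matches to other transcripts, with a mean of 11.33 ± 0.13. Its other probe set, which carries no such suffix, was at 10.35 ± 0.09 and was also above background (adjusted p = 6.31e-09, limma).

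The remaining subunits, Ift43, Wdr35 and Ttc21b, sit at the periphery of the complex. Ift43, the smallest of the 6 proteins, had log2 values of 14.21, 14.13, 13.95, 14.03 and 14.01, with a mean of 14.07 ± 0.10 (SD, n = 5). The SD of Ift43 lay at percentile 83.5 of probe sets of like level, since probe sets this bright vary little as a rule (median SD 0.06). Wdr35 had 12.63, 12.58, 12.54, 12.52 and 12.54, with a mean of 12.56 ± 0.04, an SD at percentile 4.61. Ttc21b, a subunit with helical repeats only, had 9.31, 9.17, 9.33, 9.44 and 9.22, with a mean of 9.29 ± 0.10 (95% confidence interval 9.14 to 9.45). Ttc21b had the narrowest margin of the 10 genes and was the one whose call did not hold at every background level. It was called against the level of 8.04 (adjusted p = 3.47e-07, limma). Its mean lay below the level when the tissue-restricted genes alone set the background (-0.16), at the 99th percentile of the background genes (-1.06) and after averaging over both probe sets (-0.18).

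Kinesin-2 of the cilium consists of the motor subunits Kif3a and Kif3b and the adaptor Kifap3. Kif3a had 4 probe sets, all above background (adjusted p between 4.68e-10 and 4.18e-07, limma), and the brightest gave log2 values of 11.78, 11.66, 11.56, 11.55 and 11.63, with a mean of 11.64 ± 0.10 (SD, n = 5). Kif3b also had 4 probe sets above background, although the margin of the weakest was only 0.43 (adjusted p = 0.0072). Its brightest probe set gave 11.09, 10.76, 11.04, 11.05 and 10.90, with a mean of 10.97 ± 0.14. Replicate 2 was the lowest of these values. Replicate 3 was instead the lowest at the next 2 probe sets of Kif3b, with 9.74 at the second, where the other arrays gave 10.17 to 10.53, and 8.83 at the third, where they gave 9.22 to 9.66. Kifap3 had 13.00, 12.82, 12.66, 12.85 and 12.86 at the brighter of its probe sets, with a mean of 12.84 ± 0.12, and 9.93 ± 0.12 at the other.

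Dync2li1 encodes the light intermediate chain that helps to stabilise the dynein-2 motor. It had a single probe set, with log2 values of 12.98, 12.84, 12.52, 12.80 and 12.66 and a mean of 12.76 ± 0.18 (SD, n = 5; 95% confidence interval 12.57 to 12.95). Replicate 1 was the highest and replicate 3 the lowest. The SD of Dync2li1 was the largest among the 10 chosen probe sets and lay at percentile 81.1 of probe sets of like level.

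The spread between replicate sorts was small at the brightest probe sets and much wider at some of the others. The median SD of the 10 brightest was 0.11 (range 0.04 to 0.18), beside 0.15 over all named genes above background, and 6 of 10 had an SD below the median of their level. Among the 11 other probe sets the median SD was 0.29. The 9 of these that were above background had a median of 0.25, beside 0.18 for the 5908 probe sets of all named genes that were above background without being the brightest of their gene. Neither comparison of medians was matched for level. Among probe sets of like level, the SDs of the 10 brightest had a median percentile of 43.6. Those of the 9 others above background ran from percentile 1.22 at Kif3a to 98.4 at Wdr19.

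Wdr19 and Wdr35 carried the widest of these spreads. The second probe set of Wdr19 had log2 values of 10.75, 10.76, 9.45, 9.83 and 10.29, with a mean of 10.21 ± 0.57 (SD, n = 5). Replicates 1 and 2 were high and replicates 3 and 4 low, over a range of 1.31, while the first probe set of Wdr19 spanned 0.26. The second probe set of Wdr35 had 9.28, 8.88, 7.36, 7.80 and 8.37, with a mean of 8.34 ± 0.78. Replicates 1, 2 and 5 of it lay above the background level and replicates 3 and 4 below, and it was not called (0.30 over the level, adjusted p = 0.36, limma). The first probe set of Wdr35 spanned 0.10 on the same arrays. The SD of 0.57 at Wdr19 lay at percentile 98.4 of probe sets of like level, and that of 0.78 at Wdr35 at percentile 98.97. Without replicate 3, the lowest array at both probe sets, the SDs were 0.44 and 0.64. The weaker probe set of Ttc21b was below background on all 5 arrays, with values of 5.49, 5.84, 5.04, 5.51 and 5.33 (5.44 ± 0.29), so that its spread says little about the transcript.

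**Figure D2:**
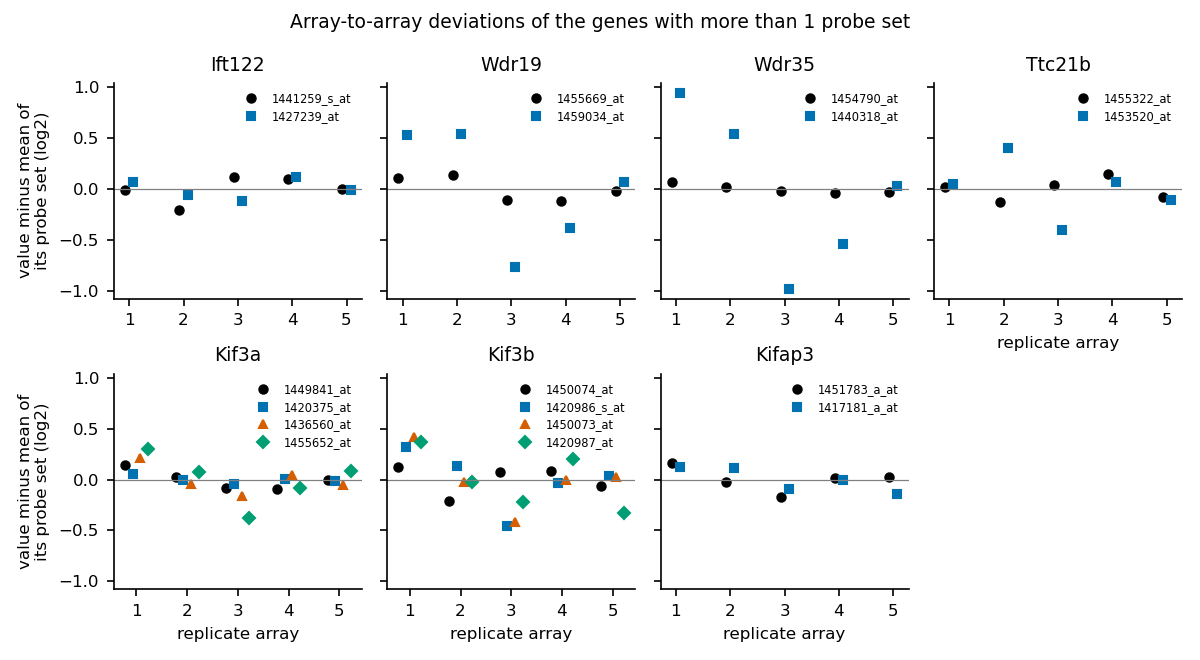
Value on each replicate array minus the mean of its probe set (vertical axis, log2) for the 7 genes with more than 1 probe set; black circles are the brightest probe set and the other symbols the remaining probe sets. At Wdr19 and Wdr35 the second probe set is high on replicates 1 and 2 and low on replicates 3 and 4, while the first spans 0.26 and 0.10.

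**Figure D3:**
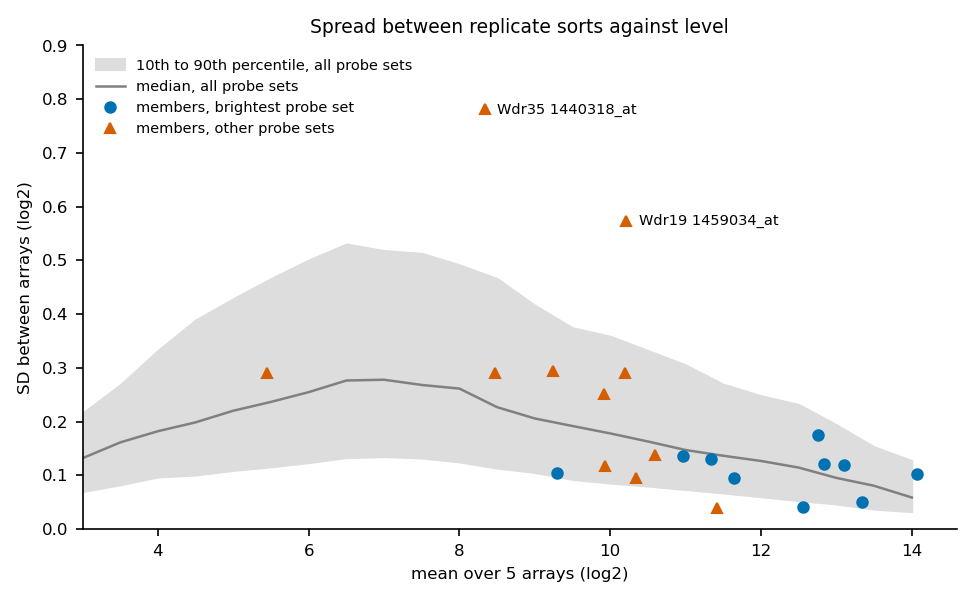
SD between the 5 arrays (vertical axis, log2) against the mean (horizontal axis, log2) for the 21 probe sets of the transport genes, over the median and the 10th to 90th percentiles of all probe sets. The second probe sets of Wdr35 (0.78) and Wdr19 (0.57) are the only ones above the band.

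Replicate 1 was the highest array for 7 of the 10 genes at their brightest probe sets, beside 31.5% of all named genes above background. No single array was the lowest for most of them: it was replicate 2 for Ift122, Ift140, Ttc21b and Kif3b, replicate 3 for Ift43, Kifap3 and Dync2li1, and replicate 4 for Wdr19, Wdr35 and Kif3a. Of the 19 probe sets above background, 14 had their highest value in replicate 1, beside 31.6% of all probe sets above background, and 10 had their lowest value in replicate 3, beside 34.2%. Lowest in replicate 3 were mainly the weaker probe sets, 7 of 9 of them, and the share among weaker probe sets of all genes was not counted. Many of the 19 probe sets share a gene, so they are not independent counts. Averaged over the 10 genes at their brightest probe sets, the deviation from the gene's own mean was 0.10, -0.03, -0.05, 0.01 and -0.03 on the log2 scale in replicates 1 to 5, a range of 0.15. Most of that range came from replicate 1, and it was 0.06 without it. Over the 11 other probe sets the mean deviation was 0.31, 0.15, -0.37, -0.05 and -0.04, a range of 0.67. For the 9 of them above background the range was 0.56. The 5908 probe sets of all named genes that were above background without being the brightest had a range of 0.11. Replicate 3 was the lowest array on average for those 5908 too (-0.05). A high replicate 1 was not particular to the transport genes. It was also the highest array on average for the related lists described below of IFT-B (0.12), BBSome (0.12) and other dynein-2 genes (0.07). The lists of IFT-A adaptors and cargo (-0.02), kinases (-0.03) and cytoplasmic dynein and kinesin-1 (-0.03) were below their own means there.

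**Figure D4:**
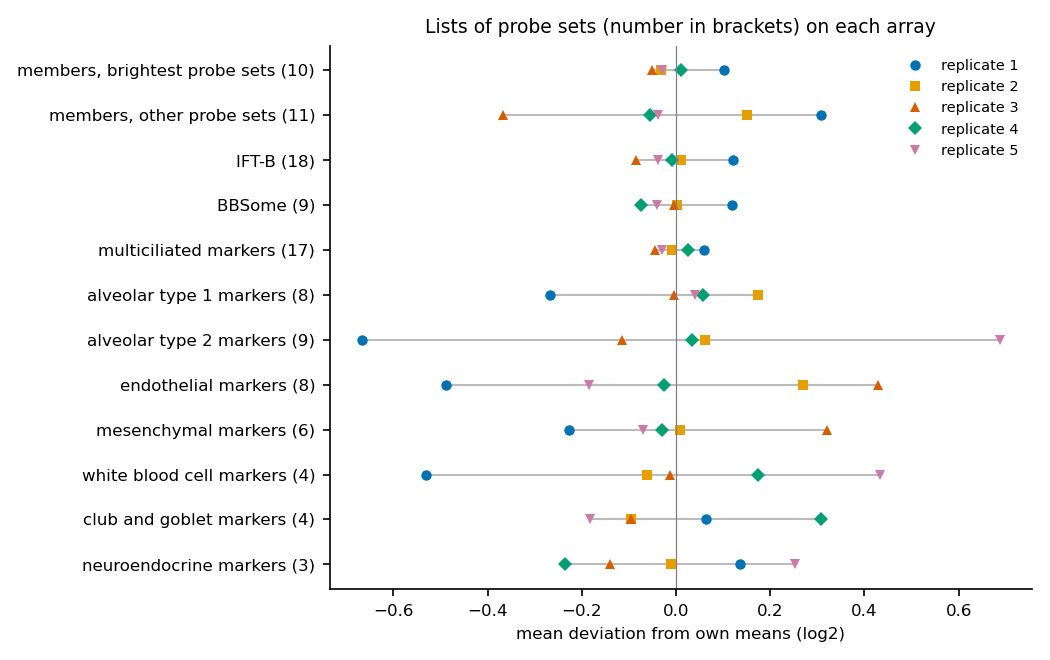
Mean deviation from own means (horizontal axis, log2) of the transport genes and of other lists (rows, number of probe sets above background in brackets; the transport genes are shown with all of their probe sets) on each of 5 replicate arrays. The 10 brightest probe sets of the transport genes span 0.15 and the 11 others 0.67, beside 1.36 for alveolar type 2 markers.

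Markers of other cell types moved between the arrays as well, and replicate 1 was the lowest array for those of alveolar type 1 and 2, endothelial, mesenchymal and white blood cells. The mean deviation in replicates 1 to 5 was -0.67, 0.06, -0.12, 0.03 and 0.69 for 9 alveolar type 2 markers, and -0.49, 0.27, 0.43, -0.03 and -0.18 for 8 endothelial markers. For 4 white blood cell markers it was -0.53, -0.06, -0.01, 0.17 and 0.43, and for 17 multiciliated markers 0.06, -0.01, -0.04, 0.02 and -0.03. The 4 club and goblet markers were instead lowest in replicate 5 (0.06, -0.09, -0.10, 0.31 and -0.18 in replicates 1 to 5) and the 3 neuroendocrine markers in replicate 4 (0.14, -0.01, -0.14, -0.24 and 0.25). On average the transport genes were thus highest on the array on which these markers of alveolar type 2, endothelial and white blood cells were lowest. A sign of RNA length differed between the arrays too. The control probe sets at the 3′ end of Gapdh exceeded those at its 5′ end by 1.02, 1.03, 1.43, 1.25 and 1.14 on the log2 scale in replicates 1 to 5, so that this gap was widest in replicates 3 and 4, where the second probe sets of Wdr19 and Wdr35 were lowest. For the β-actin controls it was 0.61, 0.51, 0.68, 0.72 and 0.67, and for the transferrin receptor controls 3.54, 3.52, 3.70, 3.04 and 3.63. The 3 controls thus differed in order, and replicate 4 had the widest gap for β-actin but the narrowest for the transferrin receptor. The 5′ control of the transferrin receptor lay between 4.19 and 5.32, below the background level of 8.04 on every array. Its 3′ control was also below that level in replicates 3 (7.89) and 4 (7.83). The transferrin receptor gap therefore says little about RNA length and does not weigh equally with the other controls. The part of RNA quality or of other cells in these spreads was not tested.

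The other subunits of both motors were above background with the exception of Kif3c. All 10 measured genes of the rest of dynein-2 were above background, at log2 levels between 11.85 and 14.42. They include the heavy chain Dync2h1 at 11.85 ± 0.16 (SD, n = 5), which is the motor itself, the intermediate chains Wdr34 at 12.67 ± 0.09 and Wdr60 at 12.26 ± 0.17, and the light chain Tctex1d2 at 13.18 ± 0.26. The light chains Dynll1 at 14.42 ± 0.07, Dynll2 at 12.06 ± 0.11, Dynlrb1 at 12.47 ± 0.10, Dynlrb2 at 13.97 ± 0.06, Dynlt1f at 12.02 ± 0.08 and Dynlt3 at 13.25 ± 0.03 belong to families that cytoplasmic dynein also uses, so their levels are not specific to the cilium. Of the other kinesin-2 genes, Kif17, which encodes a homodimeric motor, was above background by a narrow margin (8.59 ± 0.29, adjusted p = 0.002, limma). Kif3c, an alternative partner of Kif3a that is best known from neurons, was below the background level on average (7.49 ± 0.08).

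Of 19 IFT-B genes 18 were above background, among them Ift20 at a log2 level of 12.31 ± 0.07 (SD, n = 5), Ift22 at 13.21 ± 0.16, Hspb11 at 12.49 ± 0.21 and Ift27 at 12.90 ± 0.07. Ttc30a2, one of several near-identical gene copies, was not (4.70 ± 0.49). All 9 measured genes of the BBSome, the coat that links membrane proteins to the trains, were above background, with Bbs1 at 11.66 ± 0.23 and Bbs2 at 12.85 ± 0.06. Of 9 adaptors and membrane cargo of IFT-A 5 were above background. Tulp3, which couples membrane proteins to IFT-A, was at 12.97 ± 0.13, and Inpp5e, a lipid phosphatase of the ciliary membrane, at 12.36 ± 0.09. Gpr161, a receptor of the Hedgehog pathway, was at 8.60 ± 0.19 and Pkd1, which encodes polycystin-1, at 9.41 ± 0.32. The Tulp3 relative Tub (8.06 ± 0.15), Adcy3 (8.03 ± 0.22) and the receptor genes Sstr3 (6.22 ± 0.06) and Mchr1 (5.89 ± 0.36), which are known from cilia of neurons, were not above background.

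All 3 measured kinases of a group known to act on the transport trains were above background, Mak at 11.35 ± 0.08, Mok at 11.67 ± 0.12 and Cdk20 at 9.22 ± 0.30. Of 14 genes of cytoplasmic dynein and kinesin-1, the motors of the cell body, 11 were above background, among them the dynein heavy chain Dync1h1 at 11.70 ± 0.10, the intermediate chain Dync1i2 at 11.84 ± 0.12 and the light intermediate chains Dync1li1 at 9.34 ± 0.10 and Dync1li2 at 11.60 ± 0.07. The exceptions, Dync1i1 at 3.83 ± 0.14, Kif5a at 6.83 ± 0.53 and Kif5c at 7.87 ± 0.29, are best known from neurons. The levels of Kif17, Gpr161, Pkd1, Cdk20 and Dync1li1 lay below the 9.45 that the tissue-restricted genes alone gave as background. These lists were described by their counts beside the 57.5% of all named genes and were not tested against them.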

How the data were processed

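RNA of 5 replicate sorts was amplified, labelled with biotin and hybridised to Affymetrix mouse arrays. The values deposited by the authors are on a log2 scale, as their range shows, and were normalized between arrays with Bioconductor. The sources used here do not give the method. After 64 control probe sets were set aside, 34945 probe sets had 1 gene symbol in the platform annotation, 932 had several and 9160 had none. All 10 member symbols matched the RefSeq table of GRCm38.p6 by Entrez identifier.

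The mean of each probe set was estimated by an intercept-only model (lmFit, eBayes; limma 3.58.1, R 4.3.3) and tested one-sided against the background level, with Benjamini-Hochberg adjustment over 45037 probe sets and a threshold of 0.05. The level was treated as known; 6 of its 135 genes were themselves called. A gene was represented by its probe set with the highest mean. Other calculations used Python 3.11.15. In simulated data, 1.0% of probe sets set at the level, 63.5% of those set 0.25 above it and 94.0% of those set 0.5 above it were called (200 each among 45037). Precision is limited by having 5 arrays.

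The members, the gene lists and the tests were chosen with earlier results of these data known. Named are all members, all measured other subunits of dynein-2 and kinesin-2, and of each other list up to 5 genes not above background and up to 4 others. The weaker probe sets of Wdr19 and Wdr35 and the Gapdh, β-actin and transferrin receptor controls were singled out after their values were seen. As alternatives, probe sets of a gene were averaged, those with a suffix were left out, the arrays were centred or put through quantile normalization, a call needed all 5 arrays, other background levels were used and each replicate was left out in turn.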

Additional observations from a re-analysis of the deposited data

Results flagged for a closer look

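Of 81 sets of 5 values examined (the member probe sets, the other genes named and the mean deviations of the lists), 1 had a sample far from the others. Dynll1, a dynein light chain shared with cytoplasmic dynein, had a log2 value of 14.30 in replicate 1, and the next lowest array was at 14.42. This gap made up 0.716 of the whole range of its 5 values, above the critical value of 0.71. Chance alone gives such a gap in about 1 in 20 sets of values, and no member probe set had one.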

How the results depend on the processing

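Of the 10 transport genes, 9 stayed above background under every alternative that gave them a value. Ttc21b did not, lying below the level with all probe sets averaged (-0.18), with the level at the 99th percentile (-1.06) and with the tissue-restricted genes alone (-0.16). With the 99th percentile, a level of 10.35, 11 of 21 member probe sets were called in place of 19, beside 17.95% of all probe sets in place of 39.7%, and 9 of 10 genes beside 30.4% of all named genes in place of 57.5%. Of all probe sets, 66.6% were called with the receptor genes alone as background and 72.2% and 60.1% at cut-offs of 5 and 6. A higher level gives fewer calls by construction. Without suffixed probe sets Ift43 and Kifap3 had no value. On leaving out each replicate in turn, 10 genes and 19 probe sets were called each time. The median SD of the members was 0.129 with all probe sets averaged and 0.100 without suffixed probe sets, beside 0.112, and 0.0982 to 0.125 on leaving out a replicate. The range over arrays of the mean deviation was 0.395 with all probe sets averaged, beside 0.152, and 0.0617 (without replicate 1) to 0.152 on leaving out a replicate. The cause of these shifts was not tested. The SDs of the second probe sets of Wdr35 and Wdr19, alternatives chosen after seeing the data, were 0.643 to 0.901 and 0.442 to 0.661 on leaving out a replicate. No paired analysis was possible because there is only 1 group.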
